A study of Mus musculus with 30 samples.

Results

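The subject here is 5 genes whose transcripts were low in regulatory T (Treg) cells of the infiltrated pancreas: Tdrp, Itm2a, Nsg2, Smarca2 and Tbl1xr1. They were chosen by their measured level in pancreatic Treg cells of IgG-treated mice, which lay below that in effector T (Teff) cells, so that contrast is described and not tested. All probe sets that the platform annotation assigns to one of these symbols alone were taken, which gave 6 of the 12422 probe sets other than controls. Tdrp has 2 of them, reported apart, and each other gene has 1.

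All 30 one-colour array records came from sorted CD4+ T cells of NOD mice carrying the BDC2.5 T cell receptor transgene, which recognizes an islet antigen. Every group therefore shares the NOD background and the transgene. The pancreas groups came from infiltrated organs. In set 2, anti-ICOS Treg cells (CD4+CD25+, 3 arrays) stood beside anti-ICOS Teff cells (CD4+CD25-, 3 arrays), all labelled 26 days of age and treated with antibody to the costimulatory receptor ICOS. In set 1, IgG Treg cells (CD4+CD25+CD69-, 3 arrays) stood beside IgG Teff cells (CD4+ with low or no CD25 and either CD69 state, 5 arrays) from mice given rat IgG, with no age entered. Set 2 also held 2 IgG Treg arrays gated as in set 1, labelled 4 weeks and 26 days. The lymph node set, all labelled 4 weeks and with no antibody named, held mesenteric CD25+ and CD25- cells (5 and 3 arrays) and peripheral CD25+ and CD25- cells (3 and 3 arrays). A CD25 gate can hold activated effector cells beside Treg cells, and nothing in the labels says that replicates came from separate mice, so p-values measure only the spread between these samples.

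Some records need a caution. The array labelled anti-ICOS Treg replicate 3 did not look like the other Treg arrays: the CD25 transcript Il2ra had a log2 intensity of 3.88 there, against 5.0 and 7.03 in replicates 1 and 2 and 3.68 to 3.82 in anti-ICOS Teff cells. Its summed intensity over 19 Treg signature genes was 863.9, against 3943 and 5220 in replicates 1 and 2 and 813 to 1157 in anti-ICOS Teff cells. It is called the library labelled anti-ICOS Treg replicate 3. Differences of means that use it and correlations between members are mostly given with and without it. Fits with a covariate or a block, medians over lists, group levels and the genes most like each member include it unless stated. Mesenteric CD25+ replicate 2 carries a CD25- source name against its title, and its Il2ra value of 5.50 lay within the CD25+ range. All peripheral arrays carry a mesenteric tissue entry, and titles were followed. The array of IgG Treg replicate 3 in set 1 is also IgG Treg replicate 2 in set 2 (its 2 copies had r = 0.997, and no further pancreatic array exceeded 0.988), which leaves 29 distinct arrays. T cell identity genes had summed intensities of 2011 to 6390 over all arrays, and array medians ran from 25.3 to 34.5 intensity units.

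The 5 genes have different known roles. Smarca2 (BRM) is an ATPase of the SWI/SNF (BAF) complexes, which slide or evict nucleosomes, and its paralog Smarca4 (BRG1) takes its place in other copies of the complex. Tbl1xr1 (TBLR1) is a WD40-repeat protein of the NCoR/SMRT corepressor complex, which carries the deacetylase Hdac3 to nuclear receptors. Itm2a is a type II membrane protein with a BRICHOS domain that is known to be induced in thymocytes during positive selection and in activated T cells. Nsg2 is an endosomal membrane protein known from neurons, where it takes part in receptor trafficking. Tdrp is a nuclear protein known from mouse testis, and no T cell role is given for it here.

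Promoter sequences of RefSeq (GRCm38.p6, 250 bases before to 50 after each start) were found for 4 of the 5 genes, with 2 start sites for Nsg2. Those of Smarca2 and Tbl1xr1 are shown because these genes varied closely together within groups, and that of Itm2a because its level differed most between node sites. Capitals mark matches, on either strand, to 6 short motifs of factor families known in T cells, whose letters follow the sequences; none of the matches overlap.
Smarca2, chr19:26604910-26605209, + strand: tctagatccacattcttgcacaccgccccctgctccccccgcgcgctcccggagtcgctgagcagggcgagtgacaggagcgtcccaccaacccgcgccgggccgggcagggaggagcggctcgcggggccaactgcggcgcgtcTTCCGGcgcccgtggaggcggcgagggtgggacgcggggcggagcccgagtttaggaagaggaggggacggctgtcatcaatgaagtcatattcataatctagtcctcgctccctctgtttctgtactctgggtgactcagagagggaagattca
Tbl1xr1, chr3:22076402-22076701, + strand: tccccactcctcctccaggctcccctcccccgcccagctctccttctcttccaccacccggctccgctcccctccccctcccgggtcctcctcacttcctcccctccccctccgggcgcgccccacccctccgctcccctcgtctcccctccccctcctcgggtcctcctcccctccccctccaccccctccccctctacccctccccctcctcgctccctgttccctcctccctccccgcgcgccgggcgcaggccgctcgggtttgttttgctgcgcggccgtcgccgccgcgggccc
Itm2a, chrX:107403311-107403610, - strand: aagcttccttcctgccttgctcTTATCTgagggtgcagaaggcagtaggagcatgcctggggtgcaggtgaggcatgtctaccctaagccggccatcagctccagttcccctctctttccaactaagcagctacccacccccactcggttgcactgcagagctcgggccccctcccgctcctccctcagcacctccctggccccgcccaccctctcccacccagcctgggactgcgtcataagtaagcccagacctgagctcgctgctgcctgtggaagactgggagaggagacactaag

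Smarca2 had a single match, to the ETS motif CCGGAA on the opposite strand, at position -105 from the start site. This motif was present in 14.9% of 32817 promoter windows of the same length. Itm2a had a single match, to the GATA motif AGATAA on the opposite strand at position -228, which 11.2% of the windows held. The Tbl1xr1 window, with 76.3% G and C bases, held none of the 6 motifs. The first Nsg2 window held the E-box CAGCTG at position 5 of the transcript, as did 16.3% of windows, and the second window held none. The TCF/LEF motif CTTTGA was in 16.0% of windows and in no member's. The RUNX motif TGTGGT was in 16.8% and in no member's. The FOX motif GTAAACA was in 3.65% and in no member's. Since the Tbl1xr1 window held no match, these letters could not show a match shared with Smarca2.

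Under IgG, where the genes were chosen, 5 of the 6 probe sets were lower in Treg than in Teff cells with no overlap of arrays. This order without overlap was held by 5.58% of all probe sets, 6.69% passed the limma test (adjusted p under 0.05) in either direction and 2.76% were called lower. These shares only describe the choice. Tdrp, by probe set 100902_at, had log2 intensities of 5.24, 5.87 and 6.05 in IgG Treg cells, against 8.22, 8.03, 8.53, 8.19 and 8.38 in IgG Teff cells, a difference of -2.55. Itm2a had 6.36, 5.54 and 5.99 in IgG Treg cells, against 8.24, 7.95, 7.99, 8.26 and 8.17 in IgG Teff cells, a difference of -2.16. In both genes the gap between the sorts was wider than the range of either sort. Nsg2 differed by -1.95, with 4.86 to 5.52 in IgG Treg cells and 6.83 to 7.27 in IgG Teff cells. Smarca2 differed by -1.72 and was the most uneven, with 6.54, 5.21 and 6.25 in IgG Treg cells and 7.47, 7.68, 8.45, 7.11 and 7.88 in IgG Teff cells. Tbl1xr1 differed by -1.67, with 6.23 to 6.79 in IgG Treg cells and 7.76 to 8.91 in IgG Teff cells. In bulk RNA, fewer cells that hold a transcript and less transcript per cell cannot be told apart.

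The second Tdrp probe set, 161405_r_at, did not follow the first. It ranged from 3.14 to 4.11 over all 30 records and averaged 3.82 ± 0.15 in IgG Treg cells (SD, n = 3) and 3.81 ± 0.22 in IgG Teff cells (SD, n = 5). Its difference was 0.02, against -2.55 for 100902_at. The r in its name marks a probe set for which the maker relaxed its probe selection rules. The statements on Tdrp below rest on 100902_at unless the other is named.

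**Figure D1:**
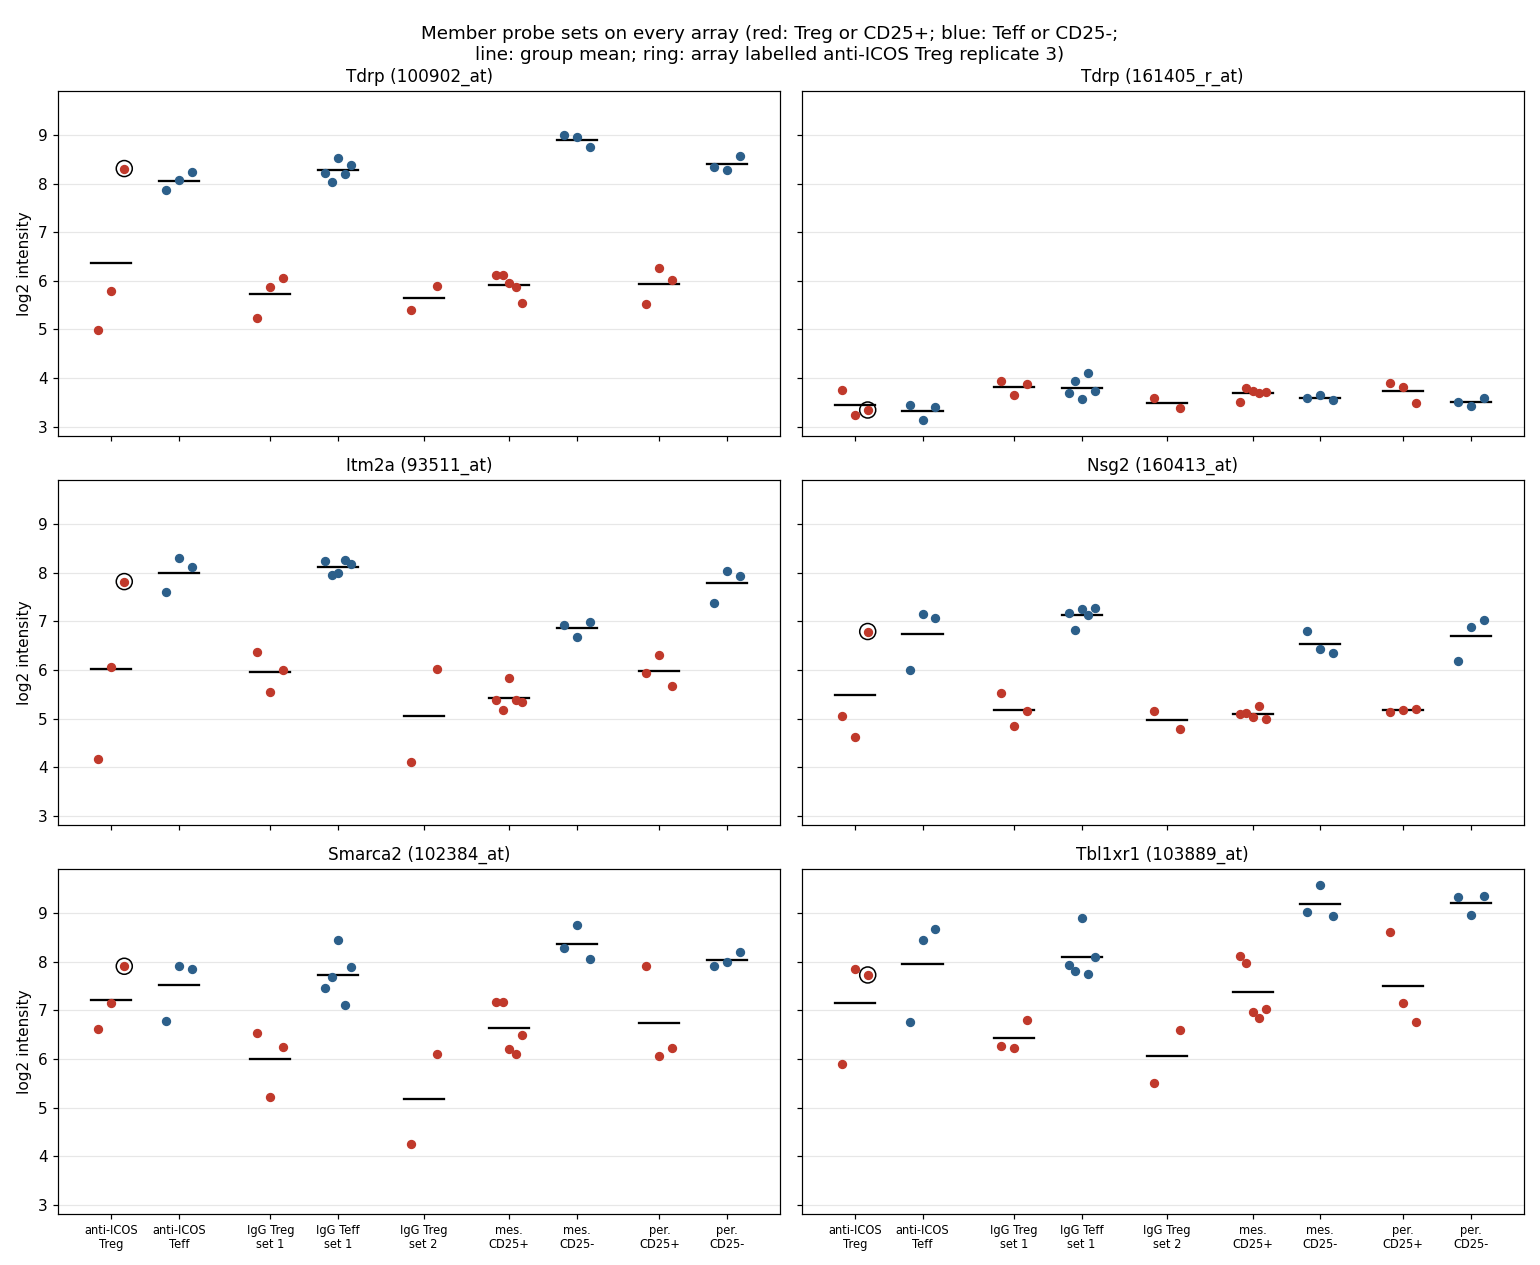
Log2 intensity (vertical axis) of the 6 probe sets on every array record, with groups along the horizontal axis, a point per array, a line at the group mean, and Treg or CD25+ cells in red left of Teff or CD25- cells in blue. The ringed library labelled anti-ICOS Treg replicate 3 sits among the Teff arrays for Tdrp (8.31), Itm2a (7.82) and Nsg2 (6.79), and probe set 161405_r_at stays between 3.14 and 4.11 throughout.

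The anti-ICOS arrays gave the first comparison that the choice of genes did not use. Its fit also took its spread from the 2 IgG Treg arrays of set 2, and 1 of these had served the choice. None of the 6 probe sets passed the limma test between anti-ICOS Treg and Teff cells, where 0% of all probe sets were called. An unadjusted p under 0.05 was reached by 209 of 12422 probe sets (1.68%), Tdrp and Itm2a among them, and 1.8% were lower in Treg cells with no overlap, with no member among them. Tdrp had 4.99, 5.79 and 8.31 in anti-ICOS Treg cells, against 7.86, 8.08 and 8.24 in anti-ICOS Teff cells. The first 2 arrays lay below every Teff array, and the third, the library labelled anti-ICOS Treg replicate 3, lay above them. The difference was -1.70 (SE 0.72, limma adjusted p = 1), and without that library it was -2.67 (SE 0.28, limma adjusted p = 0.0376), in a fit that called 12 probe sets.

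Itm2a had 4.18, 6.06 and 7.82 in anti-ICOS Treg cells, against 7.60, 8.29 and 8.12 in anti-ICOS Teff cells. Its difference was -1.99 (SE 0.85), and -2.89 without the library labelled replicate 3. Nsg2 had 5.04, 4.62 and 6.79 in anti-ICOS Treg cells, against 6.0, 7.14 and 7.07 in anti-ICOS Teff cells, with differences of -1.25 (SE 0.55) and -1.91 with and without it. For both genes the 2 remaining Treg arrays lay below all Teff arrays, though neither gene passed the test in either fit (limma adjusted p from 0.184 to 1).

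Smarca2 and Tbl1xr1 were closer between the anti-ICOS sorts. Smarca2 had 6.61, 7.15 and 7.91 in anti-ICOS Treg cells, against 6.77, 7.92 and 7.86 in anti-ICOS Teff cells. Its difference was -0.29 (95% interval -1.53 to 0.94), and -0.64 without the library labelled replicate 3. Tbl1xr1 had 5.90, 7.84 and 7.73 in anti-ICOS Treg cells, against 6.77, 8.44 and 8.66 in anti-ICOS Teff cells. Its difference was -0.80 (95% interval -2.30 to 0.70), and -1.08 without that library. The groups overlapped for both genes. Only 2 runs of consecutive array numbers held both sorts, 1 Treg array beside 2 Teff arrays and 1 beside 1, without the library labelled replicate 3. There the Treg array differed by -0.74 and -0.71 for Smarca2 and by -1.70 and -0.82 for Tbl1xr1.

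The log2 ratio of the 3' to the 5' actin control probe set, a sign of shortened RNA, averaged 3.05 in anti-ICOS Treg cells and 2.29 in anti-ICOS Teff cells. With this ratio as a covariate, the difference was -0.99 for Tdrp, -0.71 for Itm2a and -1.14 for Nsg2. It had the opposite sign for Smarca2 (0.41) and Tbl1xr1 (0.11), and none was called. This fit kept the library labelled anti-ICOS Treg replicate 3 among 3 Treg arrays, with ratios of 2.45, 2.65 and 4.06. No fit with the ratio was run without that library, so its part and that of RNA quality cannot be told apart here. With array-number run as a block, Tdrp passed the test (-2.76, limma adjusted p = 0.0146), in a fit where no Teff array came from the run of the library labelled replicate 3.

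Anti-ICOS and IgG cells were set side by side as values alone, since the gates differed. The IgG arrays, except 1 Treg array of set 2, had also served the choice of genes. For Smarca2 the Treg arrays did not overlap between treatments, at 6.61, 7.15 and 7.91 in anti-ICOS Treg cells and 4.26 and 6.11 in IgG Treg cells of set 2. The IgG array at 4.26 is labelled 4 weeks, while the one at 6.11 and the anti-ICOS arrays are labelled 26 days. Its array number also falls in a run of lymph node arrays, so treatment, age and run cannot be told apart for it. The difference of means was 2.04, and 1.69 without the library labelled anti-ICOS Treg replicate 3. Of all probe sets, 4.85% were likewise higher in anti-ICOS Treg cells with no overlap, and 9.08% without that library. The other members overlapped with and without it. With and without that library, the difference was 0.72 and -0.25 for Tdrp and 0.52 and -0.14 for Nsg2, which changed sign. It was 0.96 and 0.06 for Itm2a, and 1.10 and 0.82 for Tbl1xr1. Probe set 161405_r_at had -0.05 and 0.01. In Teff cells the differences of the 5 genes between anti-ICOS cells of set 2 and IgG cells of set 1, which were processed separately, ran from -0.39 for Nsg2 to -0.12 for Itm2a, with overlap for each. Probe set 161405_r_at of Tdrp lay lower without overlap there (-0.47), as did 43.4% of all probe sets, and its difference was -0.01 after quantile normalization over all arrays.

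Lymph nodes gave the largest independent set of arrays. In mesenteric nodes, all 5 genes were lower in CD25+ than in CD25- cells by the limma test, through 5 of the 6 probe sets, where 12.2% of all probe sets were called and 7.53% were called lower. The same 5 had no overlap between the sorts, as did 9.43% of all probe sets in that direction. The median difference of the 6 probe sets was -1.58, against 0.04 over all probe sets. Tdrp fell the most. It had 6.12, 6.12, 5.96, 5.87 and 5.54 in mesenteric CD25+ cells, against 9.0, 8.95 and 8.76 in mesenteric CD25- cells, a difference of -2.98 (SE 0.16, limma adjusted p = 1.57e-07) or 7.9-fold lower in CD25+ cells. The lowest CD25- array lay more than 2 log2 units above the highest CD25+ array.

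Itm2a had 5.39, 5.17, 5.84, 5.38 and 5.34 in mesenteric CD25+ cells, against 6.92, 6.68 and 6.98 in mesenteric CD25- cells, and fell by 1.44 (SE 0.18, limma adjusted p = 2.83e-04). Nsg2 had 5.10, 5.11, 5.03, 5.25 and 5.0 in mesenteric CD25+ cells, against 6.80, 6.44 and 6.35 in mesenteric CD25- cells, and fell by 1.43 (SE 0.16, limma adjusted p = 1.32e-04). The 5 CD25+ arrays of Nsg2 were nearly level, with an SD of 0.10.

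The 2 chromatin genes were more spread among CD25+ arrays. Smarca2 had 7.18, 7.18, 6.21, 6.10 and 6.50 in mesenteric CD25+ cells, against 8.29, 8.75 and 8.06 in mesenteric CD25- cells, and fell by 1.73 (SE 0.37, limma adjusted p = 7.87e-03). Tbl1xr1 had 8.11, 7.98, 6.97, 6.85 and 7.03 in mesenteric CD25+ cells, against 9.03, 9.58 and 8.94 in mesenteric CD25- cells, and fell by 1.80 (SE 0.38, limma adjusted p = 7.77e-03). In both genes CD25+ replicates 1 and 2, which came from a different run of array numbers than replicates 3 to 5, were the highest CD25+ arrays. Within the 2 runs Smarca2 differed by -1.34 and -1.79, and Tbl1xr1 by -1.26 and -2.0. Without mesenteric CD25- replicate 2, neither passed the test (limma adjusted p = 0.0535 for Smarca2 and 0.0531 for Tbl1xr1), which left 3 probe sets called.

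Probe set 161405_r_at of Tdrp averaged 3.69 ± 0.11 in mesenteric CD25+ cells (SD, n = 5) and 3.60 ± 0.05 in mesenteric CD25- cells (SD, n = 3), with a limma adjusted p of 0.659. The actin ratio was close between the mesenteric sorts (means 2.85 in CD25+ and 2.63 in CD25- cells), and with it as a covariate the same 5 probe sets passed. Summed marker levels of other cell types also differed between the mesenteric sorts without overlap. B cell markers summed to 654.4 to 787 intensity units over 13 genes in CD25+ cells and 568.6 to 638.7 in CD25- cells. Of the 13, 2 were called higher (Cd79b and Blk) and none lower, a share near the 12.2% of all probe sets called in either direction. Their median difference was 0.02, beside 0.04 over all probe sets. CD8 and NK cell markers summed to 80.03 to 89.53 over 5 genes in CD25+ cells and 102.7 to 105.6 in CD25- cells, with 1 of 5 called, Klrd1, which was lower (-1.08, limma adjusted p = 0.000893). Macrophage and dendritic cell markers summed to 1294 to 1580 over 15 genes in CD25+ cells and 1672 to 1871 in CD25- cells, with 2 called higher and 1 lower. The B cell list summed to 801.2 to 973.1 in IgG Treg cells and 572.3 to 653.6 in IgG Teff cells. Of its 13 genes 3 were called higher there and none lower, beside 6.69% of all probe sets called in either direction. Erythroid markers summed to 2373 to 2943 over 4 genes in IgG Treg and 525.6 to 2300 in IgG Teff cells, with 0 called. T cell identity genes summed to 5209 to 6390 and 3532 to 4791 in these groups, with 3 of 11 called higher. The part of these markers in the results was not tested. No marker was at 0 on this scale. None of 8 exocrine pancreas, 11 islet and 7 neuronal markers passed the test in the nodes, the anti-ICOS or the IgG comparison. In the anti-ICOS comparison 0% of all probe sets were called. Exocrine signal was not absent from the pancreatic sorts: these markers summed to 373.5 to 1231 in anti-ICOS Treg and 643.9 to 853.5 in anti-ICOS Teff cells. They summed to 576.4 to 1020 in IgG Treg and 559.1 to 776.8 in IgG Teff cells of set 1, against 308.7 to 408.9 over the node groups.

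In peripheral nodes, 4 of the 6 probe sets were called lower in CD25+ than in CD25- cells, where 7.69% of all probe sets were called and 5.89% were called lower. Those of all 5 genes were lower with no overlap, as were 10.8% of all probe sets. Tdrp had 5.52, 6.27 and 6.01 in peripheral CD25+ cells, against 8.34, 8.28 and 8.56 in peripheral CD25- cells, and fell by 2.46 (SE 0.18, limma adjusted p = 5.54e-06). Itm2a had 5.94, 6.31 and 5.68 in peripheral CD25+ cells, against 7.37, 8.04 and 7.94 in peripheral CD25- cells, and fell by 1.81 (SE 0.20, limma adjusted p = 1.66e-04). Nsg2 had 5.14, 5.18 and 5.2 in peripheral CD25+ cells, against 6.18, 6.88 and 7.03 in peripheral CD25- cells, and fell by 1.53 (SE 0.18, limma adjusted p = 2.26e-04). No array of one sort reached the range of the other in these 3 genes.

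Tbl1xr1 had 8.61, 7.14 and 6.77 in peripheral CD25+ cells, against 9.33, 8.95 and 9.35 in peripheral CD25- cells, and fell by 1.70 (SE 0.43, limma adjusted p = 0.0264). Smarca2 had 7.91, 6.06 and 6.23 in peripheral CD25+ cells, against 7.92, 8.0 and 8.19 in peripheral CD25- cells. Its difference of -1.30 (SE 0.42) did not pass the test (limma adjusted p = 0.0765), but it did with array-number run as a block (-1.30, SE 0.35, limma adjusted p = 0.0341). Replicate 1 lay just under the CD25- range for Smarca2, while the other 2 arrays lay far below it. Without replicate 1 the difference was -1.89 for Smarca2 (limma adjusted p = 0.0015) and -2.26 for Tbl1xr1 (limma adjusted p = 0.00127). The call of Tbl1xr1 was lost in 5 of 14 fits that left out 1 array (each peripheral CD25- array, and peripheral CD25+ replicates 2 and 3, with limma adjusted p up to 0.115), after quantile normalization (0.0557), in a fit on the peripheral groups alone (0.0772) and with the actin ratio as a covariate (0.251).

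Probe set 161405_r_at of Tdrp averaged 3.74 ± 0.21 in peripheral CD25+ cells and 3.50 ± 0.08 in peripheral CD25- cells (SD, n = 3 each), with a limma adjusted p of 0.238. The mean actin ratio was 3.02 in peripheral CD25+ and 2.54 in peripheral CD25- cells. B cell markers overlapped between the peripheral sorts, with summed intensities of 525.5 to 1008 in CD25+ cells and 503.6 to 823.3 in CD25- cells, and none of 13 passed the test. CD8 and NK cell markers again lay lower without overlap, with 83.08 to 91.28 in CD25+ cells and 96.13 to 112.1 in CD25- cells, and Klrd1 was called lower (-0.75, limma adjusted p = 0.02). Their part in the results was not tested. Tdrp, Itm2a, Nsg2 and Tbl1xr1 were called lower at both node sites, as were 4.63% of all probe sets.

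**Figure D2:**
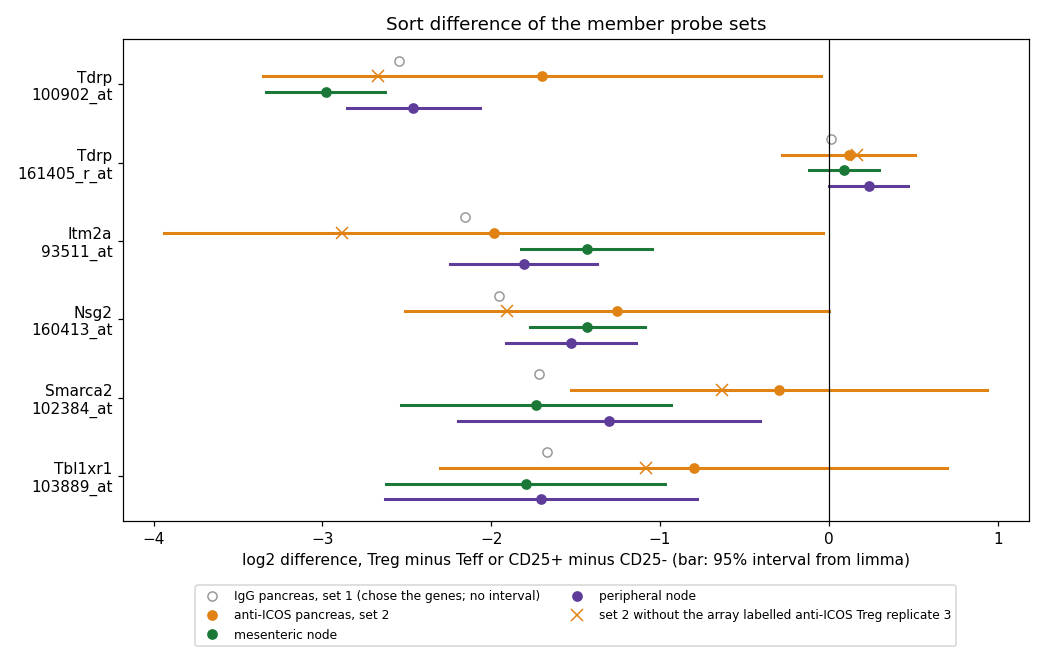
Log2 difference of Treg minus Teff or CD25+ minus CD25- cells (horizontal axis) for each probe set (vertical axis), with 95% intervals from limma for the 3 tested comparisons, open points for the IgG comparison that chose the genes, and crosses for the anti-ICOS comparison without the library labelled Treg replicate 3. The mesenteric and peripheral intervals of Tdrp 100902_at, Itm2a, Nsg2, Smarca2 and Tbl1xr1 lie below 0, and those of the anti-ICOS comparison are the widest.

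Node site was compared within each sort. Among CD25- cells, Itm2a had 6.92, 6.68 and 6.98 in mesenteric nodes, against 7.37, 8.04 and 7.94 in peripheral nodes. The groups did not overlap, but the difference of -0.92 (SE 0.20) did not pass the test over all probe sets (limma adjusted p = 0.0938), where 0.451% of probe sets were called and 5.41% were lower without overlap. It passed without peripheral CD25- replicate 1 (-1.13, limma adjusted p = 0.0252) and without mesenteric CD25+ replicate 3 (-0.92, limma adjusted p = 0.043). Within the 2 array-number runs it was -0.85 and -1.06. Tdrp lay the other way in CD25- cells, at 8.90 ± 0.13 in mesenteric and 8.39 ± 0.15 in peripheral nodes (SD, n = 3 each), a difference of 0.51 without overlap (limma adjusted p = 0.746), where 4.43% of all probe sets were higher without overlap.

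Among CD25+ cells no member passed the site test, where 0.0725% of all probe sets were called. Itm2a averaged 5.42 ± 0.25 in mesenteric CD25+ cells (SD, n = 5) and 5.98 ± 0.32 in peripheral CD25+ cells (SD, n = 3), a difference of -0.55 (95% interval -0.94 to -0.16, limma adjusted p = 0.961). Tdrp differed by -0.01 (95% interval -0.36 to 0.34) and Nsg2 by -0.07 (95% interval -0.41 to 0.27). The interaction of site and sort was called for no member and for 0.00805% of all probe sets. For Tdrp it was -0.52 (95% interval -1.05 to 0.01), the wider sort difference being in mesenteric nodes, and for Itm2a it was 0.37 (95% interval -0.21 to 0.95).

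The sort difference was also compared between tissues, as the anti-ICOS pancreatic difference minus the mean of both node differences after joint quantile normalization. Tissue coincides there with treatment and processing set, and these cannot be told apart. No member passed, and 0% of all probe sets were called, with 982 of 12422 (7.91%) at an unadjusted p under 0.05. Smarca2 had the largest value, 1.12 (95% interval -0.05 to 2.29, limma adjusted p = 0.667), and 0.77 without the library labelled anti-ICOS Treg replicate 3. Tbl1xr1 had 0.81 (95% interval -0.63 to 2.25) and 0.51 without it. Tdrp had 0.93 (95% interval -0.37 to 2.24), and -0.04 without that library. Itm2a had -0.39 (95% interval -1.74 to 0.95) and Nsg2 had 0.31 (95% interval -0.64 to 1.27), against -1.29 and -0.30 without it. With or without that library, these intervals do not show that the sort difference was alike in both tissues.

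Levels over all 9 groups are a description, since the 3 record sets were processed apart. Tdrp was highest in mesenteric CD25- cells (8.90), followed by peripheral CD25- (8.39), IgG Teff (8.27) and anti-ICOS Teff cells (8.06), and the other 5 groups had means of 5.64 to 6.36. With all arrays included, only the first step, from mesenteric to peripheral CD25- cells, was free of overlap. Anti-ICOS Treg cells had the mean of 6.36, which was 5.39 without the library labelled replicate 3. Itm2a had another order, with IgG Teff (8.12), anti-ICOS Teff (8.0) and peripheral CD25- cells (7.78) at the top, and mesenteric CD25- cells (6.86) below them without overlap with the peripheral ones. The other groups had means of 5.06 to 6.02, the highest being that of anti-ICOS Treg cells, which was 5.12 without the library labelled replicate 3.

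Nsg2 averaged 6.53 to 7.13 in the 4 Teff or CD25- groups and 4.97 to 5.48 in the 5 Treg or CD25+ groups. The anti-ICOS Treg group was the highest of the 5 through the library labelled replicate 3. Smarca2 ran without a clear step, from 8.37 ± 0.35 in mesenteric CD25- cells (SD, n = 3) to 5.19 in the 2 IgG Treg arrays of set 2, and every neighbour in the order overlapped. Tbl1xr1 averaged 9.21 in peripheral and 9.18 in mesenteric CD25- cells, and both groups lay above IgG Teff cells (8.10) and anti-ICOS Teff cells (7.96). The gap of 1.08 between mesenteric CD25- and IgG Teff cells was free of overlap and was again the step between the second and the third group after quantile normalization over all arrays. Node CD25+ cells averaged 7.51 and 7.39 for Tbl1xr1, below the pancreatic Teff groups and above the anti-ICOS Treg (7.16) and IgG Treg groups (6.43 and 6.05).

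Smarca2 and Tbl1xr1 varied together among the arrays that the choice had not used. Over 20 such arrays, with each group's mean removed, Smarca2 and Tbl1xr1 had r = 0.897, and over the 14 node arrays alone r = 0.95. This closeness was not particular to the pair. With group means removed, Tbl1xr1 had r = 0.942 with Uhmk1, and Smarca2 had 0.934 with Celf2. Tdrp had r = 0.869 with Itm2a and 0.774 with Nsg2, and Itm2a had 0.697 with Nsg2. Without the library labelled anti-ICOS Treg replicate 3, these 3 values were 0.575, 0.17 and 0.172, and that of Smarca2 and Tbl1xr1 was 0.896. Between these 3 genes and the pair r was 0.32 to 0.457 over the 20 arrays, and for node arrays alone from -0.287 to 0.0126. These are correlations over arrays that share a processing set and, in part, runs of array numbers.

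Array quality moved with some members. With group means removed, the actin ratio had r = -0.82 with Tdrp over the 14 node arrays. It had -0.371 with Nsg2, -0.157 with Itm2a, 0.07 with Smarca2 and -0.04 with Tbl1xr1 there. Over all 20 arrays it had -0.719 with Itm2a, -0.621 with Tdrp, -0.537 with Tbl1xr1, -0.288 with Smarca2 and -0.27 with Nsg2. Without the library labelled anti-ICOS Treg replicate 3 these values were -0.773, -0.813, -0.497, -0.18 and 0.02. Probe set 161405_r_at of Tdrp had the opposite sign, at 0.631 with and 0.608 without that library, and 0.06 over the node arrays. In the fits with this ratio as a covariate Tdrp still differed by -2.74 in mesenteric and -1.96 in peripheral nodes, and passed the test in both.

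**Figure D3:**
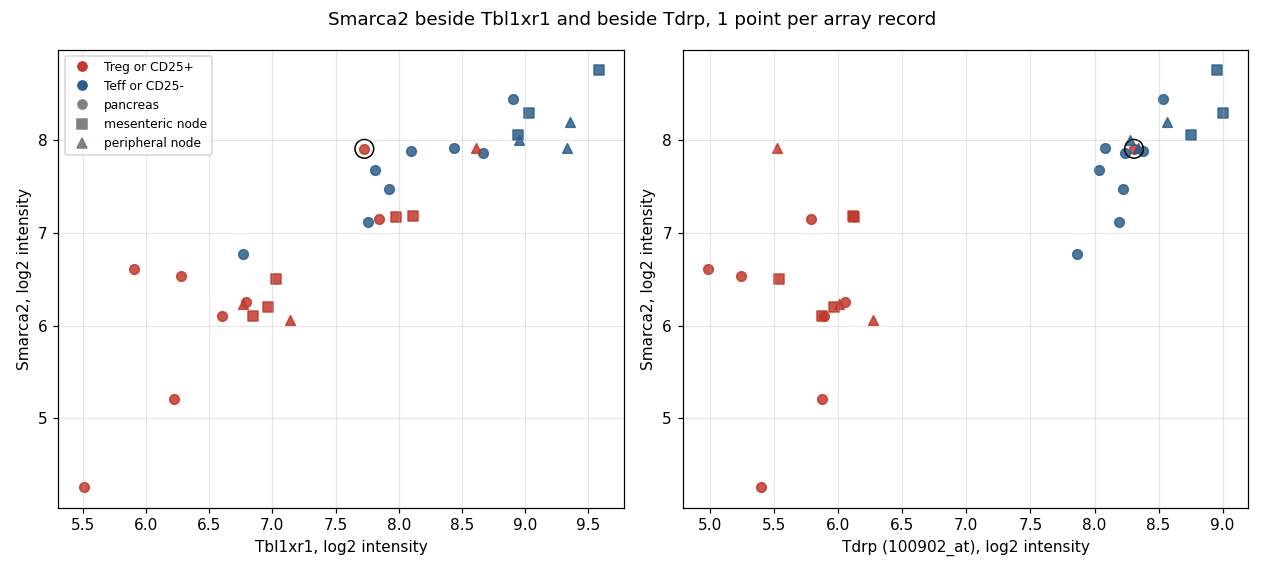
Log2 intensity of Smarca2 (vertical axes) against Tbl1xr1 (left) and Tdrp 100902_at (right), with a point for each of the 30 array records, red for Treg or CD25+ and blue for Teff or CD25- cells, and shapes for tissue. Smarca2 and Tbl1xr1 vary together within each sort (r = 0.897 over 20 arrays after removal of group means), while Tdrp forms 2 separate clouds, with the ringed library labelled anti-ICOS Treg replicate 3 (8.31) in the upper one.

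The genes most like each member were taken over the 21 arrays not used by the choice, centred within record set, as a description without a test. This centring leaves the difference between sorts in the values, and the library labelled anti-ICOS Treg replicate 3 is among these arrays. With group means removed, r was 0.686 for Tdrp with Rnf13, 0.708 for Nsg2 with Ugcg and 0.942 for Tbl1xr1 with Uhmk1. Tdrp was most like Ugcg, the glucosylceramide synthase (r = 0.944), the potassium-chloride cotransporter Slc12a7 (0.931) and the ubiquitin ligase Rnf13 (0.928). Nsg2 was most like Tdrp itself (0.927), Ugcg (0.918) and the cyclophilin Ppic (0.915). Itm2a was most like the phosphoinositide kinase Pip4k2a (0.953), the ribosome biogenesis factor Utp18 (0.951) and Mbp, known as a myelin protein (0.934). Smarca2 was most like the splicing regulator Celf2 (0.964), Ivns1abp (0.959) and the small GTPase Rab18 (0.95). Tbl1xr1 was most like the kinase Uhmk1 (0.976), the zinc finger gene Zfp871 (0.974) and Atp6ap2, an accessory protein of the vacuolar proton pump (0.972). Probe set 161405_r_at was most like Cx3cr1 (0.875), Eral1 (0.866) and Csf2 (0.865), none of them shared with 100902_at.

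Smarca2 was set beside the other SWI/SNF subunits. In both node sites most of the 17 measured subunits besides Smarca2 did not pass the test: 15 in mesenteric and 14 in peripheral nodes. The calls, 2 of 17 and 3 of 17, stand beside 12.2% and 7.69% of all probe sets called. Ss18, a BAF subunit, was lower in CD25+ than in CD25- cells, by -1.47 in mesenteric (SE 0.27, limma adjusted p = 0.0031) and -1.40 in peripheral nodes (SE 0.30, limma adjusted p = 0.0101). Smarcc1, a core scaffold subunit (BAF155), was higher in CD25+ cells, by 1.09 (SE 0.21, limma adjusted p = 0.00449) and 1.21 (SE 0.24, limma adjusted p = 0.00606). Smarce1, the HMG-domain subunit BAF57, was lower in peripheral CD25+ cells (-1.16, SE 0.21, limma adjusted p = 0.00445), with -0.45 in mesenteric nodes (limma adjusted p = 0.156). The median difference over the 17 subunits was 0.04 in mesenteric and 0.02 in peripheral nodes, close to 0.04 and 0.05 over all probe sets.

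Smarca4, the alternative ATPase, is measured by 2 probe sets, and neither was called in the 4 sort comparisons. By the one with the higher mean over all arrays, its difference was 0.51 between IgG Treg and Teff cells (SE 0.18, limma adjusted p = 0.147), 0.29 in mesenteric nodes (SE 0.35, limma adjusted p = 0.705) and 0.01 in peripheral nodes (SE 0.39, limma adjusted p = 0.996). The other probe set had 0.09, -0.01 and 0.02 in these comparisons. None of the 17 subunits was called under IgG, where Ss18 had -0.73 (limma adjusted p = 0.223) and Smarce1 -0.72 (limma adjusted p = 0.145), and none under anti-ICOS. Among 11 other SNF2-type remodelling ATPases, 4 were called lower in mesenteric CD25+ cells, where 7.53% of all probe sets were, among them Chd1 (-1.02), Chd7 (-0.93) and Hells (-0.55). Chd4, the ATPase of the NuRD complex, was called higher there (0.52). In peripheral nodes Hells alone was called, at -1.55 (SE 0.15, limma adjusted p = 6.14e-05), where 5.89% of all probe sets were called lower.

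Of the other NCoR/SMRT components on the array, Hdac3 and Tbl1x, neither was called in any of the 4 sort comparisons. Tbl1x, the paralog of Tbl1xr1, had -0.37 in mesenteric (SE 0.16, limma adjusted p = 0.176) and -0.39 in peripheral nodes (SE 0.18, limma adjusted p = 0.249). Hdac3, the deacetylase, had 0.11 and 0.15. Among 12 nuclear receptors that this complex serves, Rarg (0.49) and Nr1d1 (0.53) were called higher in mesenteric CD25+ cells, 2 of 12 beside 12.2% of all probe sets called in either direction, and none was called in the other sort comparisons.

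Itm2c, a paralog of Itm2a, lay the opposite way. It was higher in IgG Treg than in IgG Teff cells (8.64 ± 0.30, n = 3, against 7.69 ± 0.28, n = 5, SD), by 0.95 (SE 0.18, limma adjusted p = 0.0115), and higher in mesenteric CD25+ than in CD25- cells (8.30 ± 0.32, n = 5, against 7.02 ± 0.16, n = 3, SD), by 1.28 (SE 0.23, limma adjusted p = 0.00328). In peripheral nodes its difference was 0.80 (SE 0.26, limma adjusted p = 0.085). Itm2b, the third family member, had 0.24, 0.31 and 0.16 in these comparisons and was not called. Nsg1, the paralog of Nsg2, had 0.05 under IgG, 0.03 in mesenteric and 0.08 in peripheral nodes and was not called. The calls of Ss18, Smarcc1, Smarce1 and Itm2c given here held in every fit that left out 1 array of its set and after quantile normalization.

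**Figure D4:**
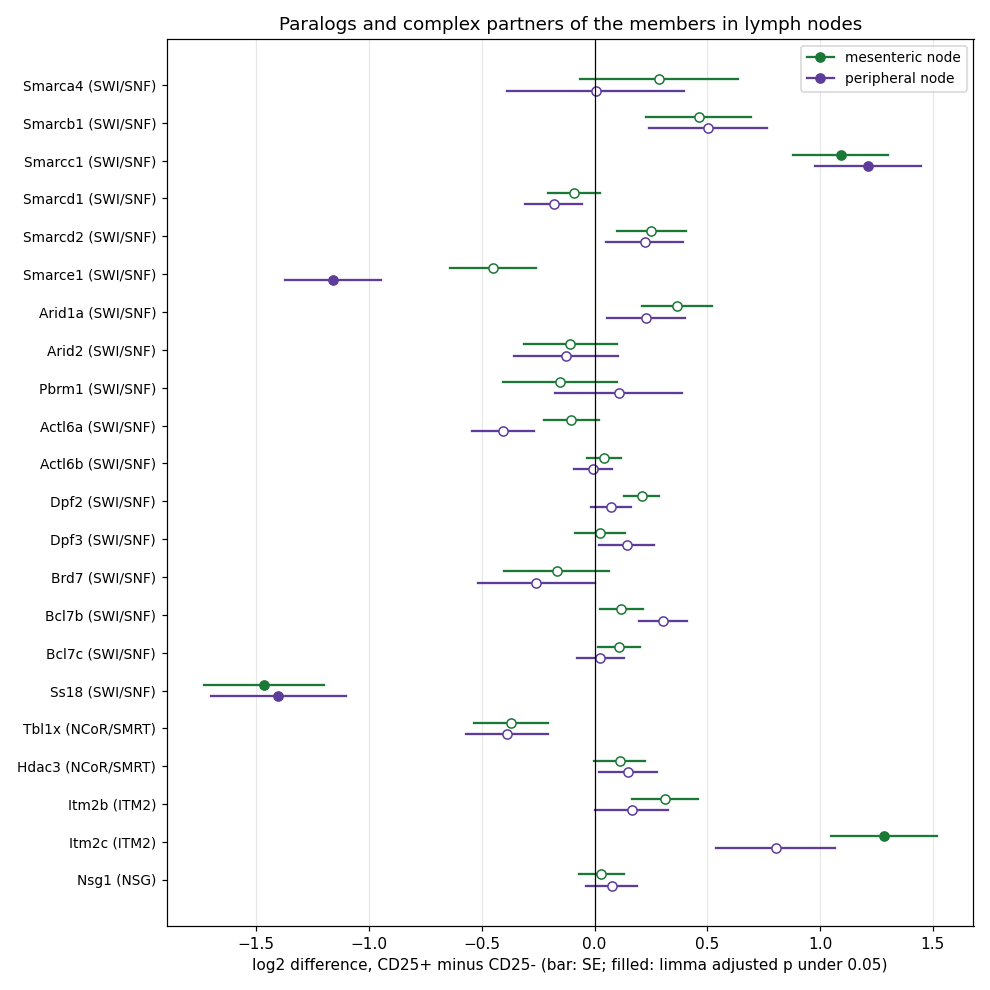
Log2 difference of CD25+ minus CD25- cells (horizontal axis, bars show the SE) in mesenteric and peripheral nodes for the paralogs and complex partners of the members (vertical axis), with filled points past the limma test. Ss18 lies near -1.4 at both sites, Smarcc1 above 1, Itm2c at 1.28 and 0.80, and Smarca4 at 0.29 and 0.01.

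Transcripts of naive and homing T cells, a list that holds none of the members, were called in part in these comparisons. Under IgG 8 of 12 were called lower in Treg cells and none higher, where 2.76% of all probe sets were called lower and 6.69% either way, among them Myb (-1.81), Actn1 (-1.63), the chromatin organizer Satb1 (-1.39) and the costimulatory receptor Cd28 (-1.38). In mesenteric nodes 3 were called lower in CD25+ cells (Satb1 at -1.19, S1pr1 at -0.51, Lef1 at -0.36) and Il6ra was called higher (0.98), 4 of 12 beside 12.2% of all probe sets. In peripheral nodes Myb (-1.64) and Il6st (-0.90) were called lower and Il6ra higher (1.09), 3 of 12 beside 7.69% of all probe sets. The median difference of the list was -0.84 under IgG, -0.22 in mesenteric and -0.29 in peripheral nodes. The 6 member probe sets had -1.84, -1.58 and -1.62 in these comparisons, and their value under IgG follows from the choice of the genes. Under anti-ICOS, which did not serve the choice, the median was -0.39 for the list and -1.03 for the members, with all arrays included. Summed over the 12 genes, the library labelled anti-ICOS Treg replicate 3 reached 3801, against 1326 and 2416 in replicates 1 and 2 and 2618 to 4201 in anti-ICOS Teff cells.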

How the data were processed

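RNA of sorted CD4+ T cells was measured on 30 one-colour array records. The deposited table held linear probe set intensities; RMA is named for set 2 and the lymph nodes, per the submitters' processing notes, while nothing read here names the method behind set 1. The authors' intensity values were turned into log2 here and not rescaled within a set. The number of arrays, not read depth, limits the precision. Groups came from titles. The 12422 probe sets other than 66 controls were fitted with limma 3.58.1 (R 4.3.3), once per record set, with Benjamini-Hochberg adjusted p under 0.05 as a call. The comparison across tissues used joint quantile normalization. The platform annotation gave 1 symbol to 10833 probe sets, several to 396 and none to 1193. Python 3.11.15 with pandas 2.3.3 and matplotlib 3.10.9 read sequences and drew figures. The fits were tested on simulated data.

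The members, gene lists and tests were chosen with earlier results of these data known. The genes named are the members, the 3 most like each probe set, and from each list those past the test (up to 4 with the smallest p), beside the members' paralogs and partners. List and marker counts took 1 probe set a gene, the one with the highest mean, while shares over all probe sets took every one. Same-numbered anti-ICOS Treg and Teff arrays deviated together (r = 0.589, 0.283 and 0.237 for the pairs), and 4 of 6 correlated best with their own number. Some same-numbered arrays came from different runs of array numbers, so pairing by number is unsure. A fit with the number as a block was run as an alternative. Node control values appeared to be stored in another order of probe set names, and were reordered by name before the actin ratio was taken. Their r with the control values of set 1, used as a check, was 0.254 as stored and 0.952 after. Alternatives were quantile normalization, a filter on dim probe sets, trended robust moderation, the run of array numbers or the replicate number as a block, the actin ratio as a covariate, fits on the contrast's groups alone, and leaving out each array.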

Additional observations from a re-analysis of the deposited data

How the results depend on the processing

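Leaving out 1 array gave 0 to 1 member called in the anti-ICOS comparison, 3 to 5 in mesenteric nodes, 3 to 5 in peripheral nodes and 0 to 1 between node sites in CD25- cells. With array-number run as a block, 1 member (Tdrp) was called in the anti-ICOS comparison. No result changed sign past a call. The replicate number as a block called 0 members and 0 probe sets in the anti-ICOS comparison, as without it, and changed no other call. In the nodes, same-numbered pairs had r of 0.161, 0.0259 and 0.323 at the mesenteric and 0.23, 0.015 and 0.144 at the peripheral site. There 3 of 6 arrays at each site correlated best with their own number, so pairing is unsure in the nodes too. The block left 5 and 4 members called there. Over all probe sets it called 832 against 1514 in mesenteric nodes and 1213 against 955 in peripheral nodes.

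Over the fits that left out 1 array, the number of probe sets called was 743 to 1878 in mesenteric nodes (1514 with all arrays), 531 to 1462 in peripheral nodes (955), 2 to 21 between sites in CD25+ cells (9), 36 to 68 between sites in CD25- cells (56), 1 to 2 for the interaction of site and sort (1) and 0 to 20 for that of tissue and sort (0). In peripheral nodes 513 were called with the groups of the contrast alone and 267 with the actin ratio as a covariate, with 3 members called in each. Without mesenteric CD25+ replicate 2, whose labels conflict, 5 members were called in mesenteric and 4 in peripheral nodes. No member was called in any of these fits for either interaction. The small number of arrays and the unclear identity of the library labelled anti-ICOS Treg replicate 3 limit the pancreatic values. The comparison of anti-ICOS with IgG Treg cells without that library was added after the data were seen.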
